A study of Mus musculus with 18 samples.

Results

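The effect of carboplatin on the transcriptome of LPS-tolerant macrophages was examined in 6 RNA-Seq samples, 3 labelled tolerant and 3 labelled tolerant with carboplatin, out of 18 samples in the series. The members are these 6 samples, chosen by their labels alone. Each tolerant sample was paired here with the carboplatin sample of the same replicate number, a pairing that the study's text does not name. The cells were bone marrow-derived macrophages (BMDMs) of C57BL/6 mice, grown from marrow in medium conditioned by L929 cells, which supply macrophage colony-stimulating factor. Tolerant BMDMs received lipopolysaccharide (LPS) at 100 ng/ml for 24 h and then, in fresh medium, LPS at 10 ng/ml for 3 h. Carboplatin at 25 µM, where given, was added 1 h before the first LPS. The methods describe removal of the medium only after the 24 h. The 6 groups of the series also include LPS-primed BMDMs, harvested after the 24 h of LPS with or without carboplatin given in the same way, unstimulated BMDMs, and BMDMs given only LPS at 10 ng/ml for 3 h. None of the groups carries a transgene or a deletion according to the labels, and the age of the mice is not given in the sources used here.

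Carboplatin is a platinum drug that forms crosslinks between bases of DNA, mostly within a strand. Such adducts stall replication forks and also block RNA polymerase II while it transcribes, and they are removed by nucleotide excision repair and, for crosslinks between strands, by the Fanconi anemia pathway. A macrophage that has met LPS once answers a further dose with less output from many cytokine genes, a state called endotoxin tolerance, whereas other genes remain inducible. Macrophages leave the cell cycle as they mature and as they respond to LPS, so that only part of a culture is dividing.

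Between 7542563 and 11351065 read pairs per library were counted on genes in the 6 samples. Mitochondrial genes took 2.52% to 3.65% of these counts and the 10 most abundant genes 16.5% to 18.2%. Each of the 12 macrophage markers examined was detected in each library, and their summed normalized counts were 289819, 260674 and 312125 in replicates 1, 2 and 3 without carboplatin and 250094, 233174 and 290215 with it, lower in each pair, and the part of this in other results was not tested. Only part of the markers of other cell types were at 0 in all 6 libraries. These were 6 of 11 neutrophil markers (Ly6g and Mpo among them), 4 of 8 dendritic cell markers (Flt3, Xcr1) and 7 of 10 lymphocyte markers (Cd3e, Cd79a). So were 5 of 6 mast cell and basophil markers (Cpa3), but only 1 of 9 stromal and 2 of 6 osteoclast markers. The summed normalized counts of 8 dendritic cell, 10 lymphocyte and 6 mast cell and basophil markers stayed between 1 and 13 per library, those of 9 stromal markers between 113 and 185, and those of 6 osteoclast markers between 826 and 1206. Those of 11 neutrophil markers ran from 140 to 541 without and from 188 to 477 with carboplatin and came mostly from S100a8, which LPS-treated macrophages also transcribe. Replicate 1 of both groups stood apart on the first principal component, which held 44.4% of the variance. In bulk RNA, fewer cells of a type and less RNA per cell cannot be told apart.

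Of 11305 genes tested with edgeR's quasi-likelihood F test, with the replicate number as a block, 200 passed an adjusted p of 0.05 (Benjamini-Hochberg). With carboplatin, 38 of them were upregulated (0.336% of the tested genes) and 162 downregulated (1.43%). All 200 moved the same way in 3 of 3 same-numbered pairs, and in 170 the 2 groups did not overlap. The test that called them compares within the same replicate numbers, so neither count is separate support for the calls. The groups did not overlap in 5.25% of all tested genes with the carboplatin samples higher and in 6.12% with them lower. The study's limits for this comparison were an absolute log2 fold change (log2FC) over 2 and an adjusted p under 0.25. They are looser in adjusted p but add a limit on fold. At these limits there were 82 differentially expressed genes (DEGs), 20 upregulated (0.177%) and 62 downregulated (0.548%). Of these, 4 upregulated and 27 downregulated genes also passed the adjusted p of 0.05. The median log2FC over all tested genes was 0.01. Without the block 48 genes passed the adjusted p of 0.05, 2 upregulated and 46 downregulated, and all 48 were among the 200. The count was 86 without replicate 2 and 94 without replicate 3 of the tolerant group, and 95, 64 and 131 without carboplatin replicates 1, 2 and 3, each with the block. The downregulated genes fell into 2 kinds, long genes and genes of cell division, and few others.

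Most of the downregulated genes were long. The span of a gene, here the outer extent of its annotated transcripts on GRCm39 in kilobases (kb), was known for 11010 tested genes and had a median of 25.5 kb. Among the 160 downregulated genes with a span the median was 297 kb, with 136 at 100 kb or over and 113 at 200 kb or over, while the 38 upregulated genes had a median of 15.1 kb and reached at most 45.2 kb. Of 53 tested genes of 500 kb or over, 25 (47.2%) were downregulated, and of 357 genes between 200 and 500 kb 88 (24.6%), against the 1.43% of all tested genes. Between 100 and 200 kb 23 of 942 genes passed (2.44%), and under 100 kb 24 of 9658 (0.248%). No gene of 50 kb or over was upregulated.

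The shift was graded over span. The median log2FC was 0.06 under 10 kb and from 10 to 20 kb, 0.04 from 20 to 50 kb and -0.04 from 50 to 100 kb. It was -0.19 from 100 to 200 kb, -0.67 from 200 to 500 kb and -1.05 at 500 kb or over, where the median gene had 0.482 times its level without carboplatin. In the longest class the medians of the 3 pairs were -1.10, -1.25 and -0.94, and from 200 to 500 kb they were -0.65, -0.70 and -0.51, so that each pair showed the same order. At 200 kb or over, 376 of 410 genes lay below 0. The number called at 200 kb or over was 113, but 40 without the block, 66 and 69 without tolerant replicates 2 and 3, and 70 and 49 without carboplatin replicates 1 and 2. The median of the 200 to 500 kb class stayed between -0.72 and -0.60 with other scaling, without the block and when samples were left out, and that of the longest class between -1.22 and -0.99.

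**Figure D1:**
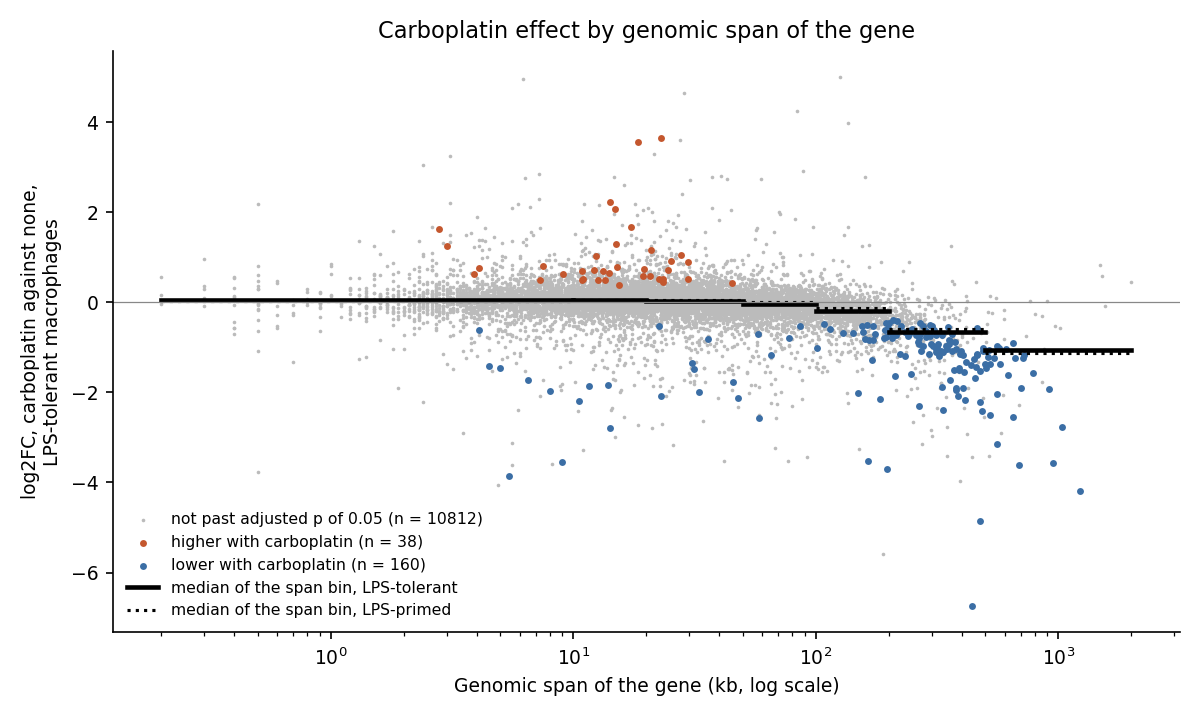
Fitted log2FC of LPS-tolerant BMDMs with carboplatin against those without (vertical axis) for each tested gene by its genomic span in kb (horizontal log axis), with genes past an adjusted p of 0.05 in orange (higher) and blue (lower) and the class medians as solid lines (dotted for LPS-primed BMDMs). The points are centred near 0 up to 100 kb and lie mostly below 0 from 200 kb on, where the class medians are -0.67 and -1.05.

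Span and the length of the spliced transcript are related, as are span and expression level, so genes were also compared within broad classes of each. Such classes hold either measure alike only in part, as the highest class of exonic length ran from 8191 to 45141 bases. Over 11010 genes of the same 6 libraries, log2FC had a rank correlation of -0.28 with span and of -0.13 with exonic length, given as a description. Among genes of 200 kb or over the median log2FC was -0.79 (17 genes), -0.74 (63 genes) and -0.67 (330 genes) in the lowest, middle and highest of 3 equal classes of exonic length. In 3 equal classes of mean count it was -0.96, -0.62 and -0.47. In the same classes, genes under 50 kb had medians between 0.02 and 0.07, so that the long genes lay lower in each class of either measure.

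The same offset was read in each library of the series. As an index, the median deviation of genes of 200 kb or over from their mean over the 18 libraries was taken minus that of genes under 50 kb, on the log2 scale. It was 0.08, 0.28 and 0.24 in tolerant BMDMs and -0.72, -0.55 and -0.37 in tolerant BMDMs with carboplatin, in replicates 1, 2 and 3. The tolerant values did not overlap those with carboplatin, and replicate 1 was lowest in both groups. In primed BMDMs it was 0.10, 0.38 and 0.40, and with carboplatin -0.58, -0.45 and -0.32. Unstimulated BMDMs had 0.17, 0.55 and 0.55 and singly stimulated BMDMs 0.18, 0.46 and 0.25, so that the 6 libraries with carboplatin were the 6 lowest of 18. Genes of 200 kb or over took 1.41%, 1.60% and 1.62% of the counts in tolerant BMDMs and 0.987%, 1.12% and 1.23% with carboplatin.

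**Figure D2:**
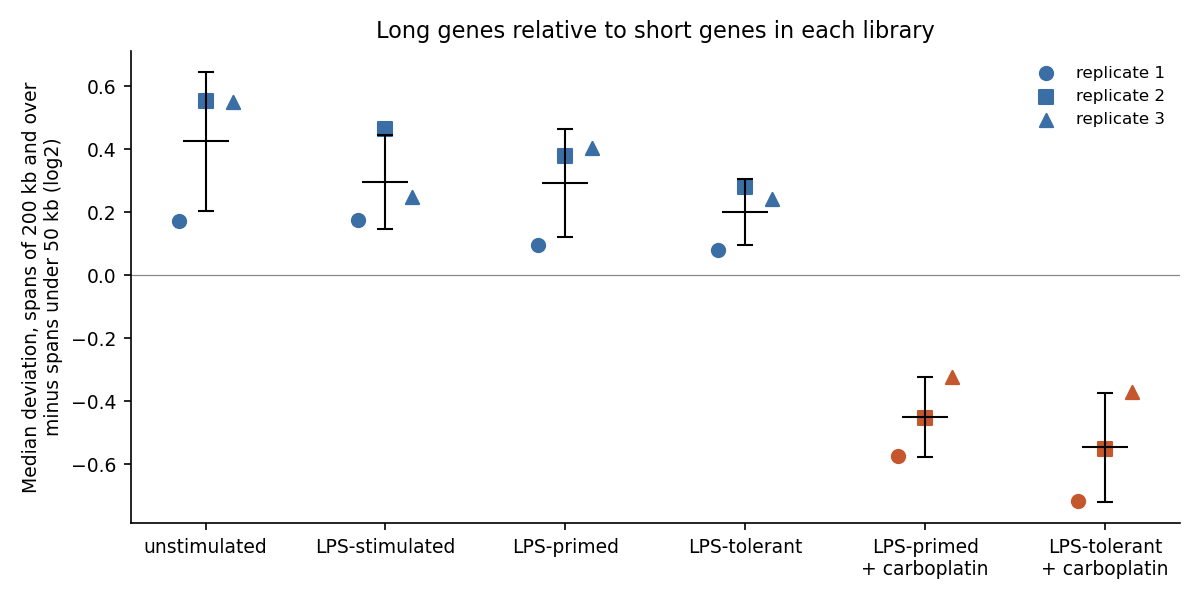
Median log2 deviation of genes of 200 kb or over minus that of genes under 50 kb (vertical axis) in each of the 18 libraries by group (horizontal axis), with circles, squares and triangles for replicates 1, 2 and 3. The tolerant libraries with carboplatin sit at -0.72, -0.55 and -0.37 and those without at 0.08, 0.28 and 0.24.

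The long downregulated genes served many functions. Values are normalized counts, counts scaled to a common library size, in replicates 1, 2 and 3, and spans and positions are those of GENCODE vM39 on GRCm39. Slc9a9 (chr9:94551669-95112500, 560.8 kb), which encodes a sodium-proton exchanger of endosomes, had 89.9, 235 and 95.7 without and 10.5, 22.8 and 12.9 with carboplatin. Each value with carboplatin was far below each value without, although replicate 2 was the highest in both groups. It was 8.88-fold lower on the fitted scale (log2FC -3.15, SE 0.28, adjusted p = 9.57e-06). Babam2 (chr5:31854708-32242306, 387.6 kb), a subunit of the BRCA1-A and BRISC deubiquitinase complexes, had 525, 567 and 500 without and 206, 181 and 195 with carboplatin, a log2FC of -1.45 (SE 0.12, adjusted p = 9.57e-06). These libraries were alike within each group and did not overlap between groups. Snd1 (chr6:28475138-28935161, 460 kb), which encodes an RNA-binding nuclease with a Tudor domain, had 1123, 1105 and 1110 and then 477, 464 and 546 (log2FC -1.17, SE 0.11, adjusted p = 2.13e-05). Trappc9 (chr15:72461467-72934559, 473.1 kb), a subunit of a vesicle tethering complex, had 382, 322 and 337 and then 109, 46.7 and 72.6 (log2FC -2.22, SE 0.22, adjusted p = 2.13e-05). In both genes the lowest tolerant library was far above the highest carboplatin library. Cux1 (319.7 kb), a homeobox transcription factor gene, was at 1707, 2008 and 1596 and then 928, 948 and 908 (log2FC -0.93, SE 0.10, adjusted p = 7.21e-05), again with no overlap.

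Genes that control the small GTPase Rac, which drives actin assembly at the leading edge and in phagocytosis, were among them. Dock2 (chr11:34176815-34674798, 498 kb), the main Rac activator of leukocytes, had 2587, 2785 and 2355 normalized counts without and 1078, 965 and 959 with carboplatin. It fell by 1.36 on the log2 scale (SE 0.13, adjusted p = 2.13e-05), with the groups far apart. Dock1 (chr7:134272372-134775375, 503 kb), a Rac activator of phagocytosis, had 376, 402 and 233 and then 113, 126 and 128 (log2FC -1.45, SE 0.18, adjusted p = 0.000273). Elmo1 (chr13:20274428-20792523, 518.1 kb), the partner protein of DOCK activators, had 361, 432 and 384 and then 186, 191 and 187 (log2FC -1.05, SE 0.15, adjusted p = 0.000631). Neither gene had overlapping groups. Vav3 (345.4 kb), which activates Rac downstream of receptors, was at 731, 1043 and 1124 and then 372, 535 and 577, lower in each library with carboplatin than in any without (log2FC -0.96, SE 0.13, adjusted p = 0.000452, and 0.153 without the block). Arhgap15 and Arhgap24 encode GTPase-activating proteins, which switch Rac off. Arhgap15 (chr2:43638815-44285967, 647.2 kb) had 64.6, 141 and 123 and then 14.4, 21.6 and 19.3 (log2FC -2.55, SE 0.26, adjusted p = 3.43e-05), and Arhgap24 (416.6 kb) had 531, 517 and 364 and then 232, 157 and 176 (log2FC -1.32, SE 0.16, adjusted p = 0.000228, and 0.0699 without the block). Of 16 tested DOCK, ELMO, VAV and Rac genes, a list written after these data were seen, 4 were downregulated (25%, against 1.43% of all tested genes and 24.6% of those from 200 to 500 kb) and none upregulated, and the median log2FC was -0.47 (-0.43, -0.45 and -0.51 in the 3 pairs) at a median span of 195 kb, against 0.01 for all tested genes. Those that did not pass included Dock4 (-0.74), Vav2 (-0.74), Dock10 (-0.36), and the GTPase genes Rac1 (-0.00) and Rac2 (0.08). Also among the named genes that passed were the formin genes Diaph2 (716.1 kb, log2FC -1.23) and Diaph3 (485.9 kb, -2.42) and the scaffold gene Iqgap2 (265.3 kb, -0.93), of which Diaph2 and Iqgap2 lost the call without the block (adjusted p = 0.501 and 0.16).

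**Figure D3:**
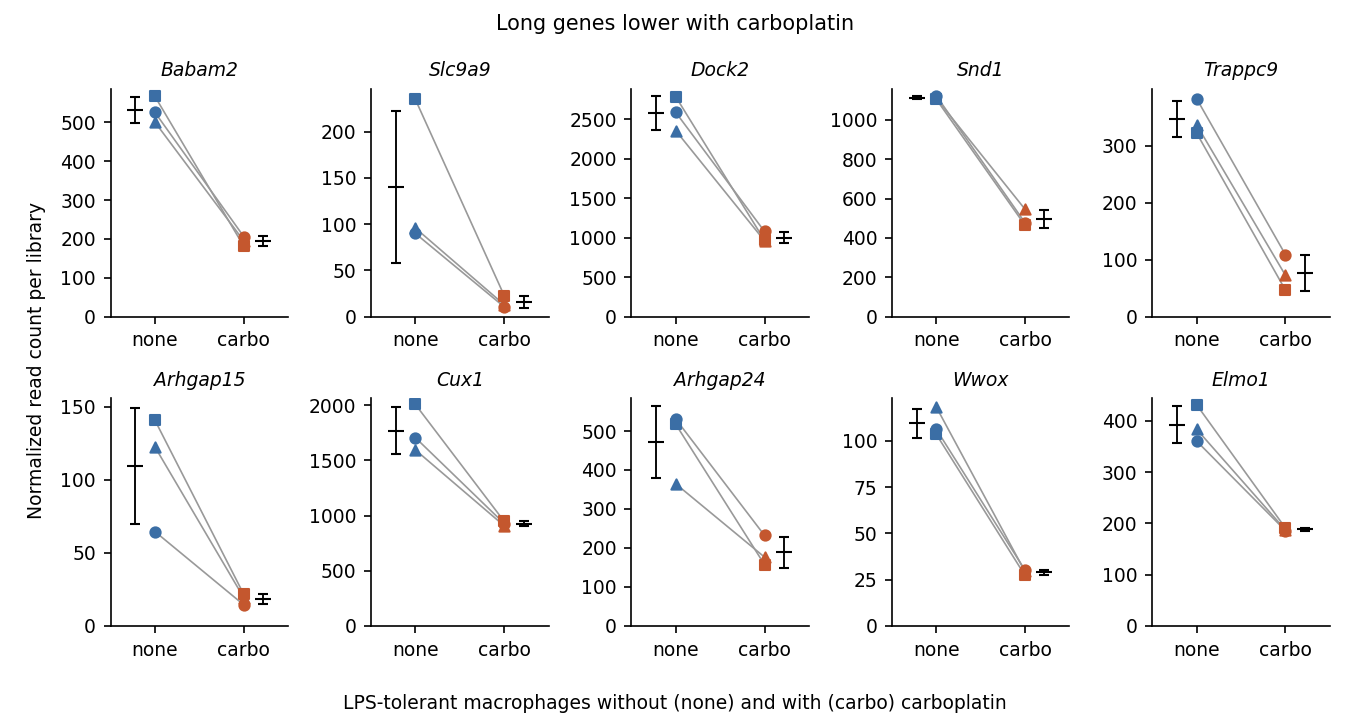
Normalized counts (vertical axes, each from 0) of 10 downregulated long genes in LPS-tolerant BMDMs without (blue) and with (orange) carboplatin, where circles, squares and triangles are replicates 1, 2 and 3, grey lines join the same number and black bars give the mean ± SD (n = 3). In each of the 10 genes, the 3 carboplatin samples lie below the 3 others.

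Genes at common fragile sites, which break under replication stress, are among the longest of the genome, and 9 of 28 listed ones were expressed enough to be tested. Of the 9, 5 were downregulated, against 1.43% of all tested genes and 47.2% of those of 500 kb or over, and the median log2FC was -1.16 at a median span of 913 kb, with -1.80, -1.08 and -0.76 in the 3 pairs. Wwox (chr8:115166192-116079448, 913.3 kb), an oxidoreductase gene, had 106, 104 and 118 normalized counts without and 30.2, 27.3 and 29.4 with carboplatin (log2FC -1.92, SE 0.25, adjusted p = 0.000326). The spread within either group was small beside the distance between them. Exoc4 (724.9 kb, exocyst subunit) had 366, 365 and 398 and then 138, 173 and 195 (log2FC -1.16, SE 0.15, adjusted p = 0.000273). Arhgap15, above, belongs to the same list. Macrod2, Magi2, Pde4d and Rora did not pass (log2FC 0.46, 0.82, 0.59 and -0.75). Fhit had 6, 0 and 0 reads without and 0 in each library with carboplatin, too few to be tested.

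Low counts lay behind some of the large folds. Sox5 (chr6:143774151-144727703, 953.6 kb), a transcription factor gene, had 29, 53 and 50 reads without and 0, 1 and 12 with carboplatin (log2FC -3.56, SE 0.67, adjusted p = 0.00812, 0.144 without the block and 0.0835 without carboplatin replicate 2). Plcb1 (689.2 kb), a phospholipase C gene, had 28, 23 and 26 reads and then 1, 1 and 4 (log2FC -3.62, SE 0.79, adjusted p = 0.0225), a call that any 1 library decided, with adjusted p between 0.057 and 0.145 when a library was left out. Both genes had no overlap between groups, with carboplatin replicate 3 the highest of its group. Gmds (520 kb), the first enzyme of GDP-fucose synthesis, Msra (335.9 kb), which repairs oxidized methionine, and Macrod1 (148.8 kb), an ADP-ribosyl hydrolase, had log2FC of -2.50, -2.40 and -2.02 and adjusted p of 0.000252, 0.000273 and 0.000634. Length did not go with a lower level in each gene. At 500 kb or over, 28 of 53 genes did not pass and 7 of them lay above 0. Pde4b (521 kb), a cAMP phosphodiesterase gene that LPS induces, had 966, 766 and 911 and then 961, 1035 and 929 normalized counts, which overlapped (log2FC 0.15, SE 0.15, adjusted p = 0.765). Slc7a11 (cystine transporter) had a log2FC of 0.10 and Foxp1 (transcription factor) of -0.18. Which start site or isoform each gene used was not measured.

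Genes of cell division made up the other downregulated kind. Of 54 genes of the G2/M list, which peak before and during mitosis, 14 were downregulated (25.9%, against 1.43% of all tested genes) and none upregulated. Their median log2FC was -0.86, 46 of 54 lay below 0, and the medians of the 3 pairs were -0.10, -1.22 and -0.76, so that pair 1 moved least, and without tolerant replicate 2 the list's median was -0.54. These genes are short, with a median span of 29.1 kb, and the 14 were most of the 24 downregulated genes under 100 kb. Of the 54, 19 had groups that did not overlap, with the carboplatin samples lower (6.12% of all tested genes). The count of 14 rested on the block and on single libraries. It was 2 without the block, 3 and 7 without tolerant replicates 2 and 3, 9, 3 and 8 without carboplatin replicates 1, 2 and 3, and 17 without tolerant replicate 1, while DESeq2 called 20 and limma-voom 7.

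Ube2c (chr2:164611768-164620742), which charges the anaphase-promoting complex with ubiquitin, had 70.9, 87.2 and 75.2 normalized counts without and 1.31, 9.11 and 8.27 with carboplatin. Each tolerant library was well above each carboplatin library, an 11.6-fold difference on the fitted scale (log2FC -3.54, SE 0.46, adjusted p = 0.000326). In unstimulated BMDMs the mean was 787, so that tolerant BMDMs already had a small part of that level. Anln (chr9:22242402-22300501), the cytokinesis protein anillin, had 54.4, 121 and 104 and then 5.24, 17.1 and 22.1 (log2FC -2.58, SE 0.42, adjusted p = 0.00232). Top2a, the topoisomerase that untangles sister chromatids, had 227, 784 and 431 and then 146, 190 and 156 (log2FC -1.48, SE 0.35, adjusted p = 0.0368, and 0.174 without the block). Both had no overlap, and in both tolerant replicate 2 was the highest library. When libraries were left out in turn, Top2a kept its call without tolerant replicate 1 and lost it without any of the other 5 (adjusted p 0.0994 to 0.229). The spindle and kinetochore genes Nusap1 (log2FC -1.99), Kif2c (-2.07), Cenpf (-2.13), Kif11 (-1.78), Ndc80 (-1.34), Nek2 (-1.86) and Birc5 (-1.72) passed as well, with adjusted p from 0.00756 to 0.0489. Pimreg, a mitotic regulator, had 15, 26 and 12 reads and then 1 in each library, a ratio of 16.5 (95% interval 5.35 to 82.6, counting error only), and its call was lost without carboplatin replicate 2 (edgeR adjusted p = 0.115) and without the block (0.128).

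Among 29 cyclins and mitotic kinases, a list written after these data were seen that shares members with the G2/M list, 6 were downregulated (20.7%, against 1.43% of all tested genes) and none upregulated, and 23 lay below 0. The median log2FC was -0.75, with -0.07, -1.14 and -0.68 in the 3 pairs, and was -0.44 without tolerant replicate 2 and also without carboplatin replicate 2. Plk1 (chr7:121758646-121769108), the polo-like kinase of mitotic entry, had 67.1, 111 and 77.2 without and 21.0, 11.4 and 22.1 with carboplatin (log2FC -2.19, SE 0.31, adjusted p = 0.000689). Ccnb1 (chr13:100915153-100923116), which encodes cyclin B1, had 50.6, 119 and 78.2 and then 19.7, 21.6 and 20.2 (log2FC -1.98, SE 0.31, adjusted p = 0.00171). The groups of both genes were separate, and both calls held without each of the 6 libraries in turn and without the block. Cdk1, the kinase that cyclin B activates, had 73.4, 145 and 90.6 and then 34.1, 63.7 and 39.5 (log2FC -1.16, SE 0.26, adjusted p = 0.0259, and 0.279 without the block). Ccnb2 had 27.9, 91.5 and 44.3 and then 15.7, 19.4 and 11 (log2FC -1.83, SE 0.34, adjusted p = 0.00726, and 0.0944 without the block). Cdc20, an activator of the anaphase-promoting complex in the G2/M list, had 53.2, 56.1 and 50.4 and then 31.5, 14.8 and 14.7 (log2FC -1.42, SE 0.32, adjusted p = 0.0259, and 0.115 without the block). None of the 3 had overlapping groups, although carboplatin replicate 1 of Cdc20 lay nearer to the tolerant libraries than the others did. The call of Ccnb2 ended without tolerant or carboplatin replicate 2 (adjusted p = 0.088 and 0.0731), that of Cdk1 without each library but tolerant replicate 1 (0.0549 to 0.154), and that of Cdc20 without each but carboplatin replicate 1 (0.0545 to 0.205). Cit, citron kinase of cytokinesis, had 8, 31 and 17 reads and then 0, 3 and 1, a ratio of 13.1 (95% interval 4.84 to 49.7, counting error only, edgeR adjusted p = 0.0168), and kept its call without tolerant replicate 1 but not without any of the others (0.0678 to 0.0883). Pbk, a mitotic kinase gene in neither list, fell by 2.78 on the log2 scale (adjusted p = 0.0481, and 0.173 without the block). S phase genes did not pass. None of 42 was called, the median log2FC was -0.23, and 33 lay below 0, while 10 had an unadjusted p under 0.05, each lower (7.17% of all tested genes were lower at that limit), and DESeq2 called 2 lower, the replication genes Pola1 and Uhrf1 (log2FC -1.79 and -1.28, edgeR adjusted p = 0.111 and 0.106).

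Genes expressed in G2 and mitosis commonly carry a cell cycle homology region (CHR, TTTGAA) and CCAAT boxes near their start sites, bound by the DREAM or MuvB complexes and by NF-Y, and S phase genes carry E2F sites. In windows from 250 bases before to 50 bases after the annotated start, read on both strands, 10 of the 14 downregulated G2/M genes held the letters TTTGAA (71.4%) and 9 held CCAAT (64.3%), against 13.5% and 39.7% of 11010 windows of all tested genes. Among the 40 other genes of the list, TTTGAA was in 18 (45%) and CCAAT in 29 (72.5%). Both motifs together were in 8 of the 14 (57.1%) and in 5.63% of all windows. The 113 downregulated genes of 200 kb or over held TTTGAA in 12.4% and CCAAT in 30.1% of windows, near or below the share of all genes, and the 38 upregulated genes held TTTGAA in 15.8%. The letters searched for E2F, TTTGGCGC, TTTCCCGC, TTTCGCGC and TTTGCCGC, were in 14 of 42 S phase windows (33.3%) and in 3.94% of all. A CCAAT match on each strand can share letters with the other, and a match is a description of the letters, not of binding. The 150 bases directly upstream of the first exon around the annotated canonical start are shown for the 4 of 14 genes that hold at least 3 matches and no annotated exon there, read 5′ to 3′ along the gene's strand, with TTTGAA and CCAAT on either strand in capitals. They are Ube2c (chr2:164611618-164611767, plus strand), Ccnb2 (chr9:70328875-70329024), Cdk1 (chr10:69188773-69188922) and Top2a (chr11:98915063-98915212), the last 3 on the minus strand of GRCm39. Cdk1 also has annotated transcripts that start farther upstream, and its stretch lies within their extent.
Ube2c: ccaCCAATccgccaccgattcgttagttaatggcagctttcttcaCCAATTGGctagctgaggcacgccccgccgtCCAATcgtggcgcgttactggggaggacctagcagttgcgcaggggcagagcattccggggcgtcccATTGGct
Ccnb2: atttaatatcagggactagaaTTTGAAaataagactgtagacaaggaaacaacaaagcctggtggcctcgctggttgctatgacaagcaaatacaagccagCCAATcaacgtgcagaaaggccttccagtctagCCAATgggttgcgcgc
Cdk1: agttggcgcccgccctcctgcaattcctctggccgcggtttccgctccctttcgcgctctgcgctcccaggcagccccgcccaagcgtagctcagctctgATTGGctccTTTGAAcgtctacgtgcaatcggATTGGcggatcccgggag
Top2a: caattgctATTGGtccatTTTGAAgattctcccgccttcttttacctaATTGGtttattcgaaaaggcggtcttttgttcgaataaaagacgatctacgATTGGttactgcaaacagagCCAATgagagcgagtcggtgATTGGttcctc

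In the stretch of Ube2c there were 5 CCAAT matches and no TTTGAA, whereas Ccnb2 and Cdk1 held 1 TTTGAA and 2 CCAAT matches each, and Top2a 1 and 5. Of the 3 other downregulated genes with such a stretch, Anln, Kif2c and Cdc20, none held a match in it.

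The p53 pathway answers DNA damage through genes that stop the cell cycle, aid repair and promote apoptosis. Of 50 tested p53 targets none passed the test, although 40 lay above 0 and the median log2FC was 0.17 (0.15, 0.26 and 0.13 in the 3 pairs), against 0.01 for all tested genes. The list's median span was 18.15 kb, and tested genes from 10 to 20 kb had a median log2FC of 0.06, with 39.4% below 0. At an unadjusted p under 0.05 there were 9, each higher (5.19% of all tested genes were higher at that limit), and DESeq2 called Cdkn1a and Ercc5, while limma-voom called none. Cdkn1a (chr17:29309936-29319701), the CDK inhibitor p21, had 934, 413 and 869 normalized counts without and 1462, 973 and 1212 with carboplatin. The lowest library with carboplatin was just above the highest without, and the adjusted p was 0.0661 (log2FC 0.77, SE 0.20). Gadd45a, a growth arrest gene, had 291, 254 and 304 and then 548, 633 and 586, without overlap (log2FC 1.06, SE 0.33, adjusted p = 0.136). The full p53 consensus, searched without mismatch in the promoter windows, was in 3 of all 11010 windows (0.0272%) and in 0 of the 50 of p53 targets. A match is so rare that the search cannot tell these genes from others.

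None of 44 genes of crosslink and double-strand break repair passed, with a median log2FC of -0.05 and 7 lower at an unadjusted p under 0.05, against 7.17% of all tested genes. The resection nuclease Exo1 and the Fanconi gene Fancd2 had log2FC of -2.02 and -1.81 (adjusted p = 0.147 and 0.205). None of 29 nucleotide excision repair genes passed either, at a median of 0.08, with 4 higher and 1 lower at an unadjusted p under 0.05 (5.19% and 7.17% of all tested genes). The endonuclease gene Ercc5 had a log2FC of 0.68, the TFIIH gene Mnat1 of -0.51 (adjusted p = 0.0835 each), and DESeq2 called both, while Ercc6, of transcription-coupled repair, had 0.38. None of 16 BCL2 family genes passed (median 0.09), with 0.70 for Bbc3, 0.32 for Bad and 0.27 for Bak1, and no call by DESeq2. At an unadjusted p under 0.05, 3 of them were higher and 1 lower, against the same 5.19% and 7.17% of all tested genes.

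The upregulated genes were fewer and mostly short. Heat shock chaperones and their partners were among them, with 3 of 23 upregulated (13%, against 0.336% of all tested genes) and a median log2FC of 0.11, in a list written after these data were seen. Hspa1b (chr17:35175412-35178214), an inducible HSP70, had 153, 49.2 and 220 without and 479, 214 and 508 with carboplatin (log2FC 1.64, SE 0.22, adjusted p = 0.00044). Hspa1a, its near-identical neighbour, had 93.7, 32.0 and 139 and then 220, 117 and 249 (log2FC 1.26, SE 0.23, adjusted p = 0.00718). In both, replicate 2 was the lowest of each group and the groups overlapped, so that the rise was seen within pairs and not without the block (adjusted p = 0.738 and 0.797). The call of Hspa1a was also lost without tolerant or carboplatin replicate 2 (0.0539 and 0.058). Because reads may be split between the 2 copies in an uncertain way, their sum was taken, which was 247, 81.2 and 359 and then 699, 331 and 757, 2.60-fold higher in the mean. Bag3, a cochaperone of HSP70, rose by 0.53 (SE 0.12, adjusted p = 0.035), a call lost without each of the 6 libraries in turn (adjusted p 0.0526 to 0.232).

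All 32 subunits of the 26S proteasome lay above 0, with a median log2FC of 0.21 and at most 0.50. Of all tested genes 49.1% lay below 0, and of those from 10 to 20 kb 39.4%, where the list's median span was 13.9 kb. Psmd2 had 4913, 4141 and 4160 and then 6374, 5569 and 5263 (log2FC 0.38, SE 0.09, adjusted p = 0.0284), and Psmd3 had a log2FC of 0.50 (adjusted p = 0.0277). These 2 were the only members called (6.25%, against 0.336% of all tested genes higher), both without overlap. Of the 32, 6 had no overlap with the carboplatin samples higher, against 5.25% of all tested genes. Both calls were lost without each of the 6 libraries in turn (adjusted p from 0.0552 to 0.173) and without the block, where Psmd2 had 0.554 and Psmd3 0.527. At an unadjusted p under 0.05, 15 of 32 were higher, Psmc3 (0.36) among them, against 5.19% of all tested genes. Polr2a (chr11:69624820-69649468), the largest subunit of RNA polymerase II, had 2570, 2389 and 2534 and then 4058, 4430 and 3797. Its groups were tight and well apart, a 1.63-fold rise (log2FC 0.71, SE 0.12, adjusted p = 0.00307, and 0.0298 without the block). It was the only 1 of 12 polymerase II subunits called (8.33%, against 0.336% of all tested genes higher), and the median of the list was 0.01, with 0.20 for Polr2g and -0.15 for Polr2e. The proteasome and polymerase lists were also written after these data were seen.

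**Figure D4:**
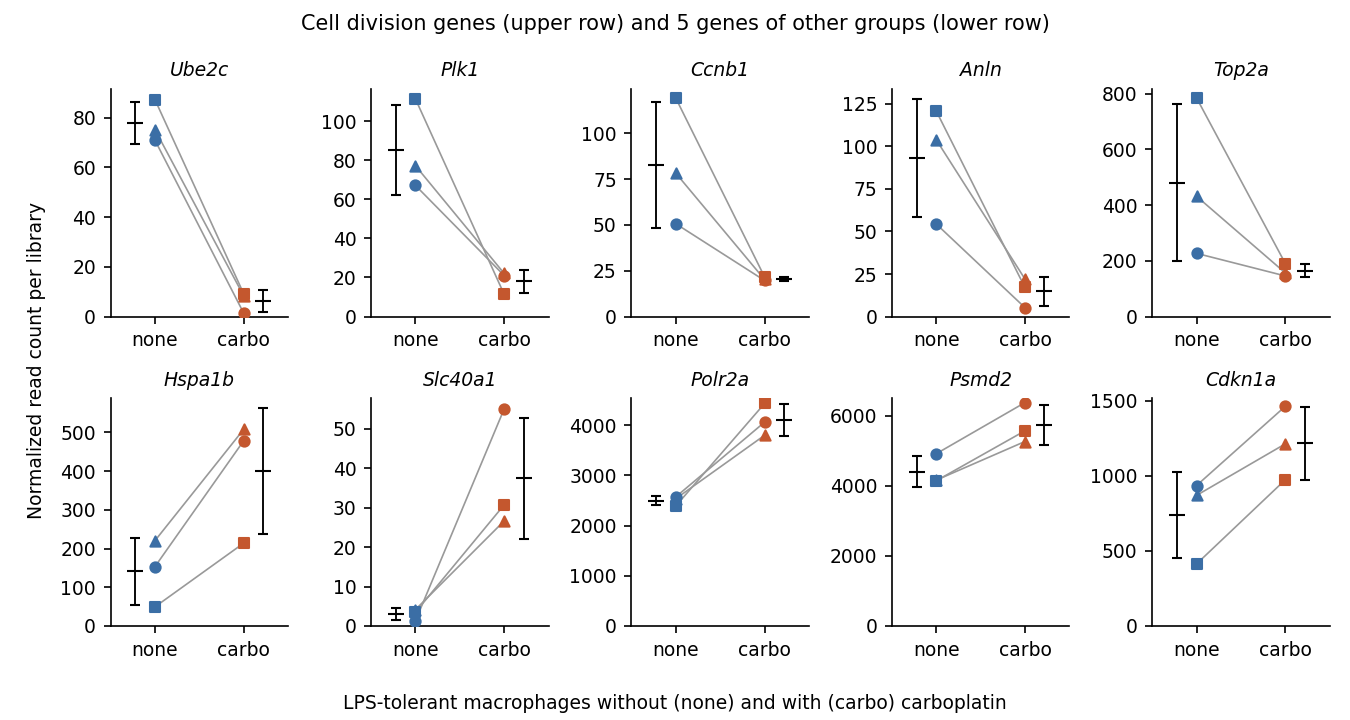
Normalized counts (vertical axes, each from 0) of 5 downregulated genes of cell division (upper row) and of Hspa1b, Slc40a1, Polr2a, Psmd2 and Cdkn1a (lower row) without (blue) and with (orange) carboplatin, drawn with circles, squares and triangles for replicates 1, 2 and 3, grey lines between the same numbers and black bars for mean ± SD (n = 3). Hspa1b overlaps between groups and is higher within each pair, and Cdkn1a did not pass the test.

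Slc40a1 (chr1:45947211-45965683), the iron exporter ferroportin, showed the largest rise among genes with a mean of at least 20 normalized counts in the higher group. It had 1, 4 and 4 reads without and 42, 27 and 29 with carboplatin, or 1.27, 3.45 and 4.12 and then 55.1, 30.7 and 26.6 normalized counts. Without carboplatin it was close to absent in each tolerant library, and the fitted difference was 11.8-fold (log2FC 3.56, SE 0.57, adjusted p = 0.00228). Its mean was 132 in unstimulated and 15.7 in primed BMDMs, so that the tolerant group was the lowest of the 6 and the carboplatin group stayed under the unstimulated level. Tnfsf4, the costimulatory ligand OX40L, had 1, 2 and 0 reads and then 22, 7 and 11, a ratio of 14.3 (95% interval 4.54 to 72.1, counting error only, edgeR adjusted p = 0.0487, lost without each of the 6 libraries in turn at 0.0853 to 0.256). F11r, the junctional adhesion molecule A, had 95, 44 and 56.6 and then 181, 93.3 and 129 normalized counts, with overlap (log2FC 1.05, SE 0.20, adjusted p = 0.00813). Spef1, a microtubule-binding protein of cilia, had 49.4, 10.4 and 26.8 and then 119, 63.7 and 68.9 (log2FC 1.68, SE 0.30, adjusted p = 0.00518), but its span overlaps Cenpb on the same strand and Cdc25b on the other, so that its reads are uncertain. The other genes of the 10 largest rises were Mss51 (log2FC 2.22), Cabyr (2.07), Pdlim4 (1.29), Dedd2 (1.15) and Fchsd1 (1.02), with adjusted p from 0.0209 to 0.0453. None of these 5, nor F11r or Spef1, passed without the block, where the adjusted p ran from 0.0787 to 0.409. Cabyr, Pdlim4 and Fchsd1 lost the call without each library in turn, Dedd2 without each but tolerant replicate 1, Mss51 without tolerant replicate 2 or 3 or carboplatin replicate 2 (0.113 to 0.173), and F11r without tolerant replicate 2 or 3 or carboplatin replicate 1 (0.0507 to 0.0796).

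Inflammatory genes, on which tolerance is commonly read, did not pass. Of 25 tested tolerizable cytokine and chemokine genes none was called, and the median log2FC was 0.06 (-0.26, 0.39 and -0.02 in the 3 pairs), so that the pairs did not share a direction, and it was -0.09 without tolerant replicate 2. Tnf had 2555, 2038 and 2258 normalized counts without and 2961, 2677 and 2494 with carboplatin, which overlapped (log2FC 0.24, SE 0.22, adjusted p = 0.721). Il6 had 438, 12.1 and 64.9 and then 400, 55.8 and 75.3 (log2FC 0.34, SE 0.47, adjusted p = 0.846). The spread of Il6 between replicates, with replicate 1 highest in both groups, was larger than the difference within any pair. Of the others, Ccl12 had a log2FC of -1.05 (adjusted p = 0.168), Nos2 of 0.44 and the growth factor gene Csf2 of -2.20 (adjusted p = 0.588). None of 18 nontolerizable genes was called (median -0.03), with 0.92 for Arg2, 0.71 for Saa1, -0.15 for Saa3, -0.07 for Marco and -0.46 for Hp.

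Among 40 early response genes of NF-κB and AP-1 none passed, while 32 lay above 0 and the median log2FC was 0.22, or 0.09 without tolerant replicate 2. Myc had -0.60, the NF-κB subunit gene Rela 0.27 and Ier5 0.28 (adjusted p from 0.165 to 0.362). Interferon-stimulated genes leaned the other way, with none of 41 called, 33 below 0 and a median of -0.23, or -0.06 without tolerant replicate 2, and with -0.42 for Xaf1 and 0.63 for Oasl1. None of 22 glycolytic enzymes passed, and 20 lay below 0 (median -0.12), with -0.38 for Hk2, -0.35 for Pfkfb3 and -0.23 for Hk1. Of 30 Hedgehog pathway genes 15 were tested and none called (median 0.04), with -0.44 for the coreceptor gene Nrp2, -0.54 for Nrp1 and 0.33 for the ciliary motor gene Kif3a. The median span was 3.5 kb for the tolerizable genes, 8.65 kb for the NF-κB and AP-1 genes and 74.1 kb for the tested Hedgehog genes. Cd40 had a log2FC of 0.25 (adjusted p = 0.718).

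Genes that write, read or erase methylation of histone H3 at lysine 9 were examined because the study followed that mark. None of 20 tested genes passed, at a median log2FC of 0.06, and 4 were higher at an unadjusted p under 0.05, against 5.19% of all tested genes. Cbx5, which encodes the reader HP1-α, had 53.2, 70.0 and 56.6 and then 15.7, 74.0 and 54.2 normalized counts (log2FC -0.38, SE 0.34, adjusted p = 0.721). Carboplatin replicate 1 was the lowest library and replicate 2 the highest of the 6, so that the groups overlapped. The methyltransferase genes Suv39h1 and Ehmt1 had log2FC of -0.40 (SE 0.31) and -0.04 (SE 0.12), and Prdm2 and the demethylase gene Kdm3b had 0.37 and 0.36 (adjusted p = 0.127 and 0.138), with 0.26 for Ehmt2. Setdb2 had 0, 0 and 1 reads and then 0, 0 and 0, and Kdm4d 0, 2 and 1 and then 5, 0 and 1, too few to be tested. Gnmt, a glycine methyltransferase gene that also was not tested, had 0 reads in each tolerant library and 7, 5 and 2 with carboplatin, at least 1.76-fold higher against a floor of 3 counts per library.

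**Figure D5:**
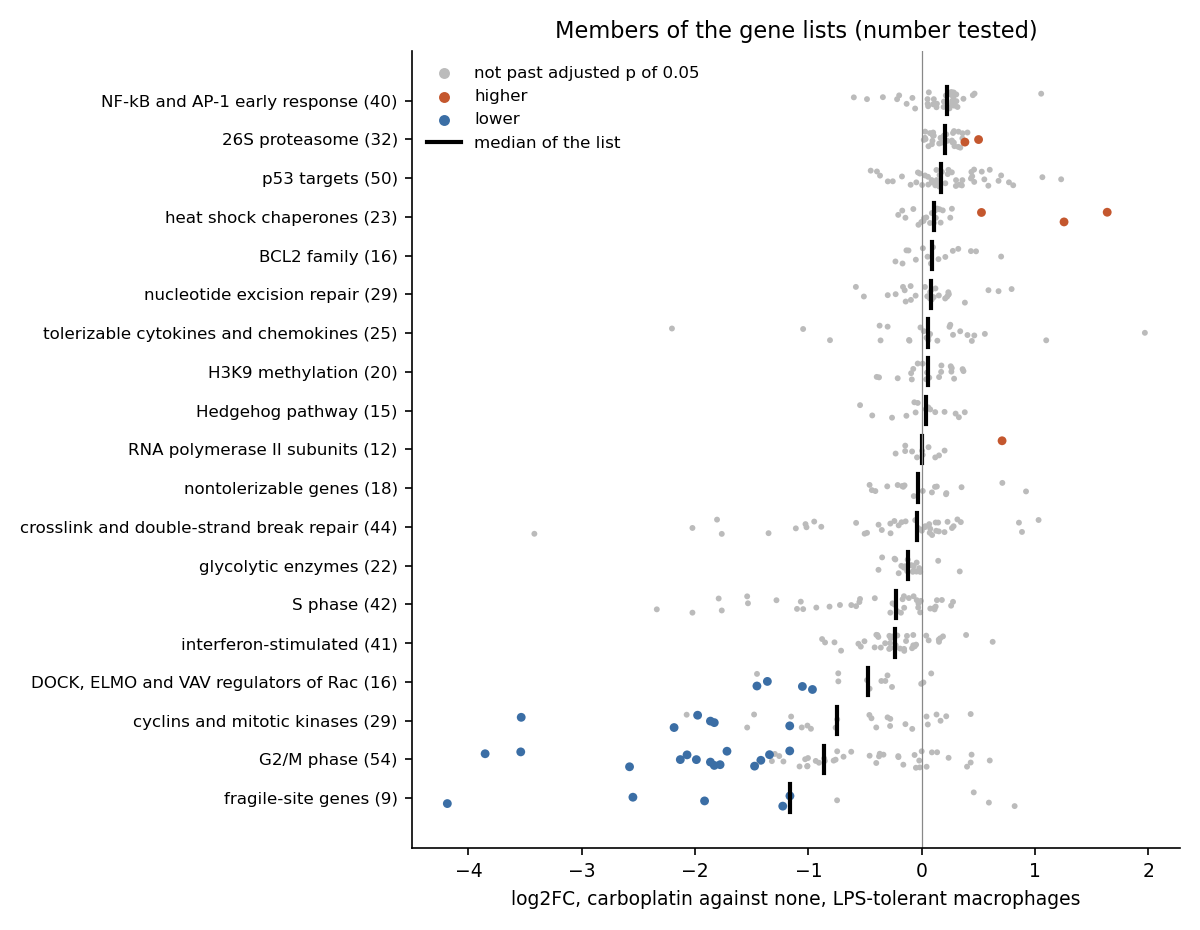
Fitted log2FC (horizontal axis) of the tested members of each gene list (rows), with carboplatin against without, where orange (higher) and blue (lower) points passed an adjusted p of 0.05, grey points did not, and the bar marks the list's median. The fragile-site, G2/M, and cyclin and mitotic kinase lists have medians of -1.16, -0.86 and -0.75, and the tolerizable cytokine list lies around 0.06.

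Apart from genes of cell division, 7 genes under 100 kb fell, with log2FC from -1.47 to -0.52. They were Stfa3, Csta2, Bphl, Pspc1, Fabp5, Irf8 and Commd1, named after their values were seen. Irf8, a transcription factor gene of the monocyte and dendritic lineages, had 1135, 961 and 1106 normalized counts without and 740, 639 and 839 with carboplatin, without overlap (log2FC -0.53, SE 0.13, adjusted p = 0.0412). That call was lost without each of the 6 libraries in turn (0.0699 to 0.247) and without the block (0.18). Stfa3, a cysteine protease inhibitor of the stefin A cluster, had 917, 40.6 and 394 and then 333, 18.2 and 129 (log2FC -1.47, SE 0.23, adjusted p = 0.00301). It was lower with carboplatin in each pair although replicates of a group differed widely and the groups overlapped, so that it had an adjusted p of 0.995 without the block, and of 0.0523 and 0.054 without tolerant replicate 3 or carboplatin replicate 1, and its reads may be shared with near-identical stefin copies.

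The same carboplatin treatment was compared in LPS-primed BMDMs, harvested before the last LPS dose, with control samples of their own. There 27 genes were upregulated (0.239% of those tested) and 173 downregulated (1.53%) at an adjusted p under 0.05. Of the downregulated genes, 104 were called in both states, 64.2% of the 162 in tolerant and 60.1% of the 173 in primed BMDMs, and 159 of the 162 had the same sign in primed BMDMs. Of the 38 genes upregulated in tolerant BMDMs 35 had the same sign and 8 (21.1%) were called in primed BMDMs. The median log2FC at 500 kb or over was -1.12 in primed and -1.05 in tolerant BMDMs, and of the 25 genes downregulated there in tolerant BMDMs 22 were also downregulated in primed BMDMs. From 200 to 500 kb the medians were -0.59 and -0.67, with 88 genes called in each state. In the G2/M list 11 genes were downregulated in primed BMDMs, at a median of -0.96.

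The distance between the 2 states differed from gene to gene. Slc9a9 had a log2FC of -2.96 in primed and -3.15 in tolerant BMDMs, Babam2 of -1.34 and -1.45, Dock2 of -1.30 and -1.36, and Hspa1b of 1.47 and 1.64. Ube2c was at -1.57 and -3.54 and Slc40a1 at 1.53 and 3.56, and neither passed in primed BMDMs (adjusted p = 0.0744 and 0.0895). Cdkn1a was at 0.85 in primed BMDMs, where it passed (adjusted p = 0.0394), and at 0.77 in tolerant BMDMs. When the difference between the 2 carboplatin effects was tested itself in edgeR, no gene passed an adjusted p of 0.05 or 0.25, and the smallest was 0.704. At an unadjusted p under 0.05 there were 330 genes, fewer than the 565 expected among 11305 tested genes if none differed. DESeq2 and limma-voom called 0, and a fit of the 12 primed and tolerant samples alone called 1, Stfa3, at a difference of -1.87 (SE 0.29, adjusted p = 0.041). In the edgeR fit of those 12 samples 628 genes had an unadjusted p under 0.05. The low count of 330 thus belonged to the fit of all 18 samples, and the reason was not tested. Outside that fit, no effect was shown to be particular to tolerant BMDMs.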

How the data were processed

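The authors made stranded mRNA libraries, aligned the read pairs with HISAT2 (GRCm39) and obtained counts for each gene from HTSeq, and the deposited values are raw counts (versions, annotation and strand option: not given in the sources used here). The labels put LPS before carboplatin in 1 field, and the study's methods describe a pretreatment, which is used here. Not assigned to a gene were 41.5% to 44.0% of read pairs in the 6 libraries, left out of library sizes. With 7542563 to 11351065 counted pairs per library, genes with few reads have wide counting error.

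The 18 samples, 3 biological replicates in each of 6 groups, were fitted in edgeR 4.0.16 (R 4.3.3) with TMM scaling, the default expression filter (minimum count 10, total 15), a prior count of 0.125 and the replicate number as a block, leaving 10 residual degrees of freedom. All adjusted p are Benjamini-Hochberg values over 11305 genes, two-sided. The study's text names no pairing. The rule of this comparison set the block. After removal of group means, same-numbered tolerant samples correlated at 0.56, 0.56 and 0.41, and differently numbered ones at -0.02 at most. With 3 samples per group, removing the means pushes the latter below 0 when the former are above it, so they are not separate evidence. Alternatives were no block, RLE or library-size scaling, other filters, prior counts and limits, DESeq2 1.42.0, limma-voom 3.58.1, the 6 samples alone and leaving out each sample.

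Named genes are the 10 largest log2FC in each direction (adjusted p under 0.05, 3 of 3 pairs, mean of at least 20), the 10 smallest p, 3 or more per list, and genes the study singles out. Plk1, Ccnb1, Cdk1, Elmo1, Vav3, Macrod1, Fhit, Pde4b, Slc7a11 and Foxp1, and members listed as not passing, were added after their values were seen. Some genes that this rule names are not reported here. The comparison, lists and rules were chosen with earlier results of these data known. Sequences are GRCm39, with GENCODE vM39 annotation matched by symbol for 20508 of 22852 symbols.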

Additional observations from a re-analysis of the deposited data

How the results depend on the processing

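The count of 200 genes at an adjusted p under 0.05 fell to 48 without the replicate block and rose to 381 with DESeq2, 995 in a fit of the 6 samples alone and 784 at an adjusted p under 0.25. It ran from 64 to 163 when 1 library was left out, and was 92, 41 and 67 when both samples of replicate 1, 2 or 3 were left out, an alternative chosen after seeing the data. With library size alone the split was 59 upregulated and 119 downregulated of 178, and the median of all genes was 0.07. The 82 DEGs at the study's limits became 44 without the block, 12 with at least 10 counts in each sample (0 upregulated), 36 in the 6 samples alone, 33 at a prior count of 2 and 251 at an absolute log2FC over 1. They ran from 44 to 91 without 1 library and were 63, 28 and 66 without both samples of replicate 1, 2 or 3. The difference between tolerant and primed BMDMs had 0 calls, and 1 in the fit of the 12 samples. The cause of these changes was not tested.

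Of 59 called genes named, none reversed. Without the block 23 kept the call, with limma-voom 48 and with DESeq2 59. Uncalled genes changed sign when libraries were left out. With 1 library out, Il6 ran from -0.024 to 1.27, Marco from -0.31 to 0.10, Slc7a11 from -0.15 to 0.36 and Ehmt1 from -0.059 to 0.0016. Without replicate 2 of both groups Il6, Marco and Slc7a11 were at -0.032, 0.094 and -0.14, without replicate 3 of both Marco was at 0.00826, without replicate 1 of both Cbx5 was at 0.00292, and with library size alone Ehmt1 was at 0.027. Depth limits genes with under about 10 reads per library.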
